A study of Homo sapiens and Mus musculus with 36 samples.

Results

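Hairpin 664 is 1 of 3 short hairpin RNAs against SREBP2 that were expressed in HepG2 cells, a line established from a human liver tumour and widely used as a hepatocyte model. The experiment compared the group HepG2_shSREBP2_664 (2 RNA-seq libraries) with the group HepG2_shControl (2 libraries), which makes 4 of the 36 samples of the series. The genes are those of the deposited comparison with a mean normalized count of at least 10 over both groups, 16426 of 17682 listed. All these cells were grown in RPMI1640 with serum, infected with pLKO.1-puro lentivirus and selected with puromycin, so the controls carry the vector and the selection too. The labels call the control an empty vector in one place and a scramble in another, and which of these it was could not be settled. The labels do not say how long after infection RNA was taken, whether a group's pair of libraries had separate cultures as source, or which of the 2 library kits they name made which library. P-values therefore measure the spread between these libraries, which may be technical. Hairpins 665 and 667, with 2 libraries each, target the same gene and were compared by the authors with the same 2 control libraries, as was a group of 2 libraries labelled shEZH2, so the comparisons are not independent of each other.

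SREBP2, encoded by SREBF2, is a membrane-bound transcription factor of the endoplasmic reticulum. When membrane sterol is low, the escort protein SCAP carries it to the Golgi, where proteases release its DNA-binding domain, which enters the nucleus and switches on the enzymes of cholesterol synthesis and of lipoprotein uptake. Its relative SREBP1, encoded by SREBF1, mainly drives the synthesis of fatty acids and triglycerides, and both act on promoters together with the factor NF-Y. In the liver this system balances cholesterol synthesis, uptake of lipoproteins and their secretion.

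Promoters of 3 genes are shown because they belong to the target itself, to the most strongly lowered enzyme of cholesterol synthesis, and to the gene with the largest fall below. Each is the 250 bases before the RefSeq transcription start in GRCh38.p14, on the strand of the gene, 5′ to 3′, with capitals marking a sterol-response-like element (TCACNCCAC) or the NF-Y box (CCAAT), searched on both strands, so that ATTGG and GTGGGGTGA are matches on the opposite strand.
SREBF2, chr22:41832855-41833104, plus strand: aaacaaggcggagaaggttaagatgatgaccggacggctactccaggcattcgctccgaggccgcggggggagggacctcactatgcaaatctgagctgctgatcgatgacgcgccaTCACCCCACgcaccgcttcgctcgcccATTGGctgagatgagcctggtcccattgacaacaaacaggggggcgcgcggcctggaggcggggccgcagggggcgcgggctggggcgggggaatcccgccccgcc
HMGCS1, chr5:43313413-43313662, minus strand: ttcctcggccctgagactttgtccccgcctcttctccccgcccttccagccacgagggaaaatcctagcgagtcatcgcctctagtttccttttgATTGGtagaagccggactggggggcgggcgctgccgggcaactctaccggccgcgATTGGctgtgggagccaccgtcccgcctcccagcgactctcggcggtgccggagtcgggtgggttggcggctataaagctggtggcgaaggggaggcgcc
MID1IP1, chrX:38801209-38801458, plus strand: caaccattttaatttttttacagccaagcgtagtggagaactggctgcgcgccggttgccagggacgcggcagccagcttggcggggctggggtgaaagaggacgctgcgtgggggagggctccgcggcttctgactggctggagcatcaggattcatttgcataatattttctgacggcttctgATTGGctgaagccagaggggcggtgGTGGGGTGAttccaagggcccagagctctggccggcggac
In SREBF2 the element lies 133 bases before the start and the NF-Y box 106 bases before it, and in MID1IP1 the element lies 40 and the box 65 bases before the start. HMGCS1 holds 2 NF-Y boxes, 155 and 100 bases before the start, and no match to the element. Over windows that run on to 50 bases after the start, 1.15% of 27305 RefSeq promoters held the element and 35.7% held the NF-Y box. RefSeq promoters were matched by symbol for 10994 of the 16426 genes, among them 17 of the 22 cholesterol synthesis enzymes, of which 12 (70.6%) held an NF-Y box and 0 held the element. Among genes holding the NF-Y box, 34.8% were lower with hairpin 664, beside 33.2% of all matched genes, and the share was 38.3% of the 115 genes holding the element. A second, E-box-type element (TCACGTGA), the same on both strands, was held by 1.04% of all promoters and by 0 of the 17 enzymes, and 39.5% of the 205 genes holding it were lower. A match is a run of letters, not a measured binding site.

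The deposited tables hold 1 row per gene for each comparison, with the mean over its 4 libraries, and values of single libraries were not analysed here. Levels of each group below were therefore computed from the mean and the fold change in the authors' deposited table, as normalized counts, and carry no error of their own. The authors' means summed to 40979200 normalized counts in the 664 table, and between 31754600 and 33907300 in the tables of the other 3 groups set against the same control. The median standard error of a log2 fold change, over genes with a mean of at least 100, was 0.0929 for 664, 0.140 for 665 and 0.144 for 667 in the authors' deposited tables, so the same change is called more readily with 664. With 664, 8998 genes had a deposited adjusted p-value (Benjamini-Hochberg) under 0.05 and are called changed here, which is 54.8% of the genes. Of these, 4281 (26.1% of the genes) were higher and 4717 (28.7%) were lower, and a change of at least 2-fold was met by 1345 (8.19%) and 653 (3.98%). Against the same control, 41.0% of genes were called with 665 and 38.8% with 667. The 13 protein-coding transcripts of the mitochondrial genome were all higher with 664, by a median of 1.72 on the log2 scale, and mitochondrially encoded features made up 5.23% of the control's summed level and 15.5% of that of 664. The same median was 2.03 with 665, 1.78 with 667 and 2.32 in the libraries labelled shEZH2, so this difference from the control libraries accompanied every group compared with them, and what it contributes to the changes below was not tested. In those libraries labelled shEZH2, the authors' deposited table listed EZH2 higher than the control (log2 fold change 0.90, SE 0.38, adjusted p = 0.0337) and SREBF2 at 0.43 (SE 0.35, adjusted p = 0.288).

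SREBF2 (chr22:41833079-41907308, GRCh38, GENCODE 29) checks the label. Its level was 5033 normalized counts in the control and 1685 with hairpin 664, as computed from the authors' deposited table. That leaves 33.5% of the control, a log2 fold change of -1.58 (SE 0.06) in the authors' deposited table. The authors' deposited tables gave -1.08 (SE 0.12) for 665 and -2.35 (SE 0.42) for 667. The fall with 664 was deeper than with 665 by 0.50 (adjusted p = 0.0033, normal test on the difference of the deposited fold changes), and its distance from 667 did not pass the same test (0.77, adjusted p = 0.32). SREBF2 RNA was thus lower with each of the 3 hairpins, and 664 lay between the other two by its point estimate.

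All 22 measured enzymes of cholesterol synthesis were lower with hairpin 664, beside 28.7% of all genes. Their median log2 fold change was -1.58, beside -0.00112 over all 16426 genes, and their range ran from -2.82 to -0.26. In the first stage, from acetyl-CoA to farnesyl and geranylgeranyl diphosphate, HMGCS1, which makes HMG-CoA, fell furthest. HMGCS1 stood at 7088 normalized counts in the control and 1002 with 664, 14.1% of the control, in the authors' deposited table (log2 fold change -2.82, SE 0.06). IDI1, the isopentenyl diphosphate isomerase, went from 4040 to 839 (-2.27, SE 0.07) in the authors' deposited table. ACAT2, MVK, MVD and FDPS, which act along the same stage, fell by between 1.56 and 1.75 on the log2 scale. The smallest changes of the stage were those of PMVK, the phosphomevalonate kinase (-0.50, SE 0.18), and GGPS1, which makes geranylgeranyl diphosphate for protein prenylation rather than sterol (-0.26, SE 0.08), in the authors' deposited table.

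In the second stage, from farnesyl diphosphate to cholesterol, FDFT1, the squalene synthase that commits the pathway to sterol, went from 13442 to 2486 normalized counts (-2.44, SE 0.04) in the authors' deposited table. LSS, which closes the ring to lanosterol, went from 3706 to 871 (-2.09, SE 0.07) in the authors' deposited table. SQLE, the squalene epoxidase, went from 7456 to 2441 (-1.61, SE 0.05), and DHCR7, the last reductase of one branch, from 9391 to 2858 (-1.72, SE 0.04), in the authors' deposited table. CYP51A1, MSMO1, NSDHL, HSD17B7 and SC5D, which strip methyl groups from or desaturate the sterol, fell by between 1.18 and 1.65 on the log2 scale. Smaller changes were those of the reductases TM7SF2 (-0.49, SE 0.05) and LBR (-0.35, SE 0.05) and of the isomerase EBP (-0.69, SE 0.05) in the authors' deposited table. LBR is also a protein of the nuclear envelope.

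The other 2 hairpins repeated most of this. Of the 22 enzymes, 22 were lower with 665 (median -1.41, beside 21.3% of all genes lower) and 19 with 667 (median -1.77, beside 19.8%), and 19 were called lower with all 3 hairpins. PMVK, GGPS1 and LBR were repeated by 665 and were not called with 667. Beside 12.7% of genes whose fold change differed between 664 and 665 (7.22% higher and 5.49% lower in 664), 7 of the 22 enzymes did: 4 fell further with 664 (IDI1, FDFT1, LSS and DHCR7), and 3 fell less, MSMO1 and EBP among them. Beside 9.87% of genes that differed between 664 and 667 (5.36% higher and 4.52% lower in 664), 7 of the 22 did, and each of them, ACAT2, HMGCS1, MVD, IDI1, SQLE and EBP included, fell less with 664. EBP was the enzyme whose fall with 664 was smaller than with both others, by 0.56 against 665 (adjusted p = 0.00026) and 0.42 against 667 (adjusted p = 0.0063, both from the normal test on the difference). In the libraries labelled shEZH2, where SREBF2 was not called lower, the median of the same 22 enzymes was -1.10 against the same control libraries in the authors' deposited table. A part of the fall that comes from the hairpin and a part that comes from these 2 control libraries cannot be told apart here.

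**Figure D1:**
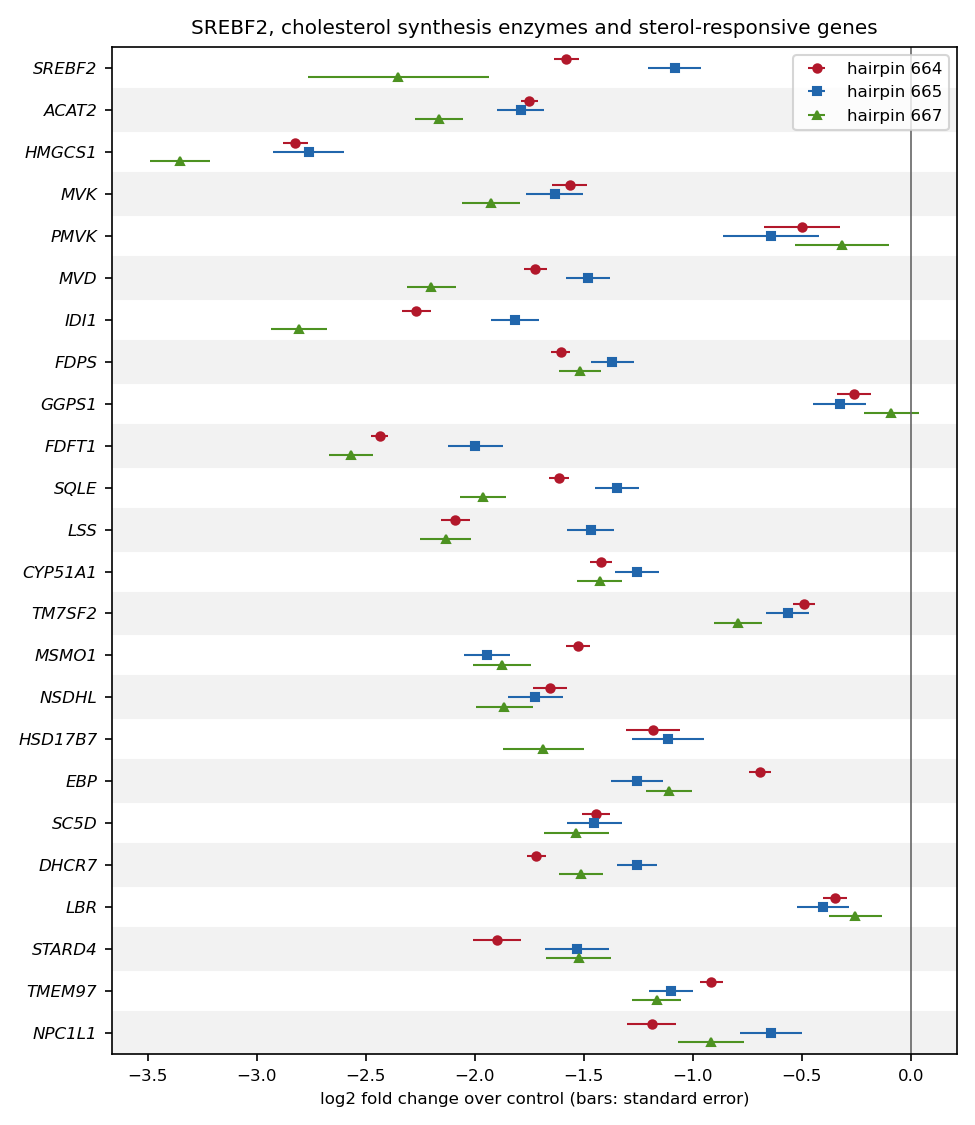
Log2 fold change over the control (horizontal axis) of SREBF2, 20 of the 22 cholesterol synthesis enzymes and 3 sterol-responsive genes in the deposited tables of the 3 SREBP2 hairpins. Points are the authors' estimates and bars their standard errors. Every point of hairpin 664 lies below 0, from -2.82 for HMGCS1 to -0.26 for GGPS1, and for EBP the point of 664 (-0.69) lies above those of both other hairpins (-1.25 and -1.11).

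Of 11 measured sterol-responsive genes outside the synthesis pathway, 8 were lower and 2 were higher with hairpin 664 (median -0.91), beside 28.7% and 26.1% of all genes. MYLIP, described below with the efflux genes, is among the lower ones and is counted in both lists. STARD4, a carrier of cholesterol between membranes, went from 1293 to 347 (-1.90, SE 0.11), and TMEM97, a sterol-binding membrane protein, from 4788 to 2542 (-0.91, SE 0.05), in the authors' deposited table. Both were also lower with the other 2 hairpins, with no difference that passed. By the test 3 of the 11 genes were lower and 1 higher with 664 than with 665, beside 5.49% and 7.22% of all genes. Against 667, 4 were lower and 1 higher, beside 4.52% and 5.36%. Of the 10 calls 2, MYLIP among them, were repeated by neither, beside 28.2% of all calls. The medians over the 11 genes were -0.57 with 665 and -0.22 with 667.

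The regulators of the pathway split, with 4 of 10 measured members higher and 4 lower, beside 26.1% and 28.7% of all genes. SREBF1 fell from 4835 to 1029 normalized counts, 21.3% of the control, in the authors' deposited table (-2.23, SE 0.06). Its deposited changes were -0.91 with 665 and -1.06 with 667, and the fall with 664 was deeper by 1.33 (adjusted p = 1.2e-26) and 1.17 (adjusted p = 4.4e-18). On the log2 scale SREBF1 thus fell further with 664 than SREBF2 itself, although the hairpin is labelled for SREBP2. INSIG2, which holds SCAP in the endoplasmic reticulum, rose from 2271 to 3939 (0.79, SE 0.05) in the authors' deposited table, and 667 repeated it (1.12) while 665 did not (-0.06). RNF139, a sterol-sensing ubiquitin ligase, fell from 1015 to 680 (-0.58, SE 0.10) in the authors' deposited table and was lower with all 3 hairpins.

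The fatty acid branch fell with 664, and several of its members fell further than with the other hairpins. Of 15 measured genes of fatty acid synthesis, 12 were lower and 3 higher (median -1.26), beside 28.7% and 26.1% of all genes. Their median was -0.89 with 665, -0.97 with 667 and -0.85 in the libraries labelled shEZH2, against the same control in the authors' deposited table. SCD, which puts the double bond into oleate, went from 50598 to 9171 normalized counts (-2.46, SE 0.02) in the authors' deposited table, beside -1.33 with 665 and -1.11 with 667. FASN, the fatty acid synthase, went from 41099 to 16052 (-1.36, SE 0.03), and ACLY, which supplies cytosolic acetyl-CoA, from 12381 to 4799 (-1.37, SE 0.04), in the authors' deposited table. FADS2, a desaturase of polyunsaturated fatty acids, went from 4100 to 485 (-3.08, SE 0.08) in the authors' deposited table, beside -2.18 and -1.96. MID1IP1, a partner of acetyl-CoA carboxylase whose promoter is printed above, went from 2073 to 113 (-4.19, SE 0.13), the largest fall in the authors' deposited table where the mean was 100 or more and the standard error 1 or less. MID1IP1 fell by 3.15 with 665 and by 2.44 with 667. The difference passed against both hairpins for SCD, FASN, FADS2 and MID1IP1, and against 665 alone for ACLY. Of the 15 genes, 9 were lower with 664 than with 665 and 6 than with 667 by the test, beside 5.49% and 4.52% of all genes, and 2 were higher in each case, beside 7.22% and 5.36%.

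Genes of cholesterol efflux and of the oxysterol receptor LXR were lower in 7 of 11 and higher in 2, beside 28.7% and 26.1% of all genes, and after centring on the median in 5 and 3. Of the 9 calls 5 were repeated by neither other hairpin, beside 28.2% of all calls. MYLIP, a ubiquitin ligase induced by LXR, fell from 196 to 71.9 normalized counts (-1.45, SE 0.27) in the authors' deposited table, beside 0.14 with 665 and 0.24 with 667. NR1H4, the bile acid receptor FXR, which is grouped here with the efflux genes, rose from 713 to 1307 (0.87, SE 0.09) in the authors' deposited table, where 665 gave 0.09 and 667 -0.39, both short of the call. LPCAT3, a phospholipid-remodelling enzyme, fell by 0.59 and was repeated by 667, and SOAT1, which esterifies cholesterol, fell by 0.40 and was repeated by both. ABCA1, the main cholesterol exporter to HDL, rose by 0.23 (SE 0.06) in the authors' deposited table.

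Lipoprotein genes moved the other way. All 13 measured apolipoprotein genes were higher with 664 (median 0.67), beside 26.1% of all genes. With 665, 8 were higher and 2 lower, beside 19.6% and 21.3% of all genes. With 667, 12 were higher, beside 19.0%. In the libraries labelled shEZH2 the median of the 13 was 0.645 against the same control libraries. A part that comes from the hairpin and a part that comes from these control libraries cannot be told apart here. APOA1, the main protein of HDL, went from 261704 to 686099 normalized counts (1.39, SE 0.02) in the authors' deposited table. APOC3, an inhibitor of lipoprotein lipase, went from 7681 to 34150 (2.15, SE 0.03), and APOE, a ligand for the uptake of lipoproteins, from 145637 to 224632 (0.63, SE 0.02), in the authors' deposited table. APOH, a phospholipid-binding plasma protein, went from 47118 to 85212 (0.85, SE 0.02) in the authors' deposited table, and was the member that neither other hairpin repeated, with -0.35 (called lower) for 665 and 0.13 for 667. Of the 19 genes of triglyceride assembly and lipid droplets, 13 were higher and 5 lower with 664 (median 0.53), beside 26.1% and 28.7% of all genes. Of these 18 calls 9 were repeated by neither, beside 28.2% of all calls, while the medians were -0.08 with 665 and -0.01 with 667. MTTP, which loads lipid onto apolipoprotein B, went from 2406 to 4973 (1.05, SE 0.05) and rose with all 3 hairpins in the authors' deposited table. AGPAT2, an acyltransferase of phosphatidic acid synthesis, went from 371 to 1668 (2.17, SE 0.10) in the authors' deposited table, beside 0.58 and 0.85. ANGPTL8, a secreted regulator of lipoprotein lipase, went from 339 to 1519 (2.16, SE 0.10) in the authors' deposited table, beside 0.66 and 0.72, and both genes rose further with 664 than with each of the others by the test. ANGPTL4, another inhibitor of that lipase, went from 53.5 to 616 (3.53, SE 0.20) in the authors' deposited table, beside 1.07 with 665 and 3.03 with 667.

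In fatty acid oxidation 9 of 14 measured genes were higher and 2 lower, beside 26.1% and 28.7% of all genes. Their median was 0.32 with 664, -0.09 with 665, 0.28 with 667 and 0.56 in the libraries labelled shEZH2. CPT1A, which admits long-chain fatty acids to mitochondria, went from 997 to 4432 normalized counts (2.15, SE 0.20) and rose with all 3 hairpins in the authors' deposited table. PPARA, the nuclear receptor of this pathway, went from 597 to 1210 (1.02, SE 0.10) in the authors' deposited table, and ACADVL, a mitochondrial dehydrogenase, from 5984 to 8848 (0.56, SE 0.04), and both were also higher with the other hairpins. In bile acid synthesis 4 of 9 genes were higher and 1 lower, beside 26.1% and 28.7% of all genes. Of these 5 calls 0 were repeated by both other hairpins, beside 41.1% of all calls, and 5 calls are too few to read as a trait. CYP27A1, the sterol 27-hydroxylase, rose by 0.16 (SE 0.03) with 664 and was called lower with 665 (-0.69) and 667 (-0.63) in the authors' deposited table.

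The highest changes where the mean was 100 or more and the standard error 1 or less included detoxifying, secreted and metabolic genes. GSTA1, a glutathione transferase of the liver (chr6:52791664-52803910, GRCh38, GENCODE 29), went from 148 to 9938 normalized counts (6.07, SE 0.09) in the authors' deposited table, beside 2.60 with 665 and 2.75 with 667. GSTA2, its near-identical neighbour, went from 19.5 to 1000 (5.68, SE 0.24) in the authors' deposited table, and reads may be split between the pair. LCN2, a secreted iron-siderophore carrier, went from 96.0 to 2087 (4.44, SE 0.13) in the authors' deposited table, beside 2.09 and 2.42. These 3 genes rose with all 3 hairpins and rose further with 664 than with either other hairpin by the test. PCK1, the rate-limiting enzyme of gluconeogenesis, went from 52.3 to 1106 (4.40, SE 0.17) in the authors' deposited table, was repeated by 667 (3.36) and was not called with 665 (0.75). IGFBP3, a carrier of insulin-like growth factors, went from 36.9 to 746 (4.34, SE 0.21) in the authors' deposited table and rose most with 667 (5.16). HSPA6, an inducible heat shock protein with close relatives, had the highest estimate, 7.55 (SE 0.76), against a control level of 1.66 normalized counts in the authors' deposited table, so its size is poorly fixed. In the libraries labelled shEZH2, against the same control, GSTA1 stood at 3.10, PCK1 at 3.17, LCN2 at 3.87 and HSPA6 at 4.28 in the authors' deposited table. PPP1R1A and the transcripts named only by clone, AC024896.1, AC125611.3 and AC091959.1 complete the 10 highest, at 4.10 to 4.38.

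The lowest changes, after MID1IP1, belonged to genes of several kinds. TUBA1A, an alpha tubulin with many near copies, went from 1712 to 109 normalized counts (-3.97, SE 0.14) in the authors' deposited table, beside -2.11 with 665 and -1.66 with 667. NGFR, a neurotrophin receptor, went from 969 to 74.2 (-3.71, SE 0.17) in the authors' deposited table, and was lower still with 667 (-5.00). L1CAM, a neural adhesion molecule, went from 1136 to 107 (-3.40, SE 0.15), and EDN1, the vasoconstrictor endothelin, from 453 to 41.0 (-3.47, SE 0.24), in the authors' deposited table. ANGPTL1 (-3.52), ASB4 (-3.50) and AC004882.3 (-3.20) were also lower with all 3 hairpins.

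**Figure D2:**
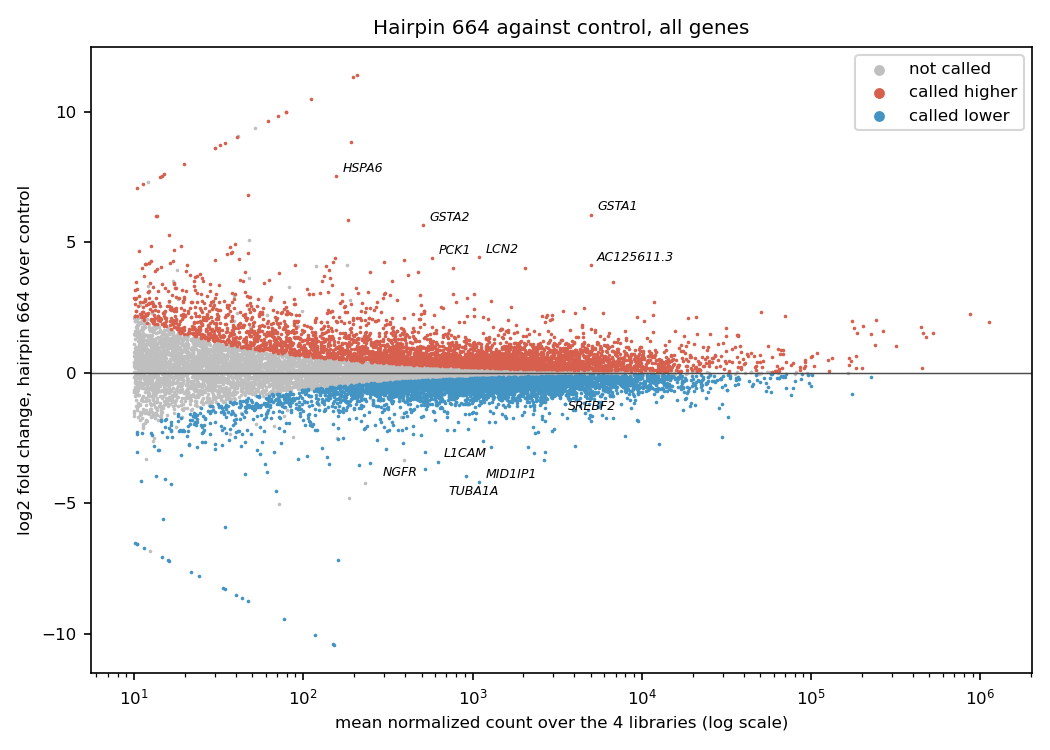
Log2 fold change of hairpin 664 over the control (vertical axis) against the mean normalized count of the 4 libraries (horizontal log axis), 1 point per gene with a mean of at least 10. Genes called higher are red, called lower blue and the rest grey. SREBF2 lies at -1.58 and MID1IP1 at -4.19, and the straight outer lines are mostly genes with almost no counts in 1 group, where 40 of 42 called genes beyond 6 in either direction have a standard error above 1.

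Liver secretory genes rose in part. Of 22 hepatocyte markers 12 were higher and 7 lower with 664, beside 26.1% and 28.7% of all genes. ALB, serum albumin, went from 236851 to 678929 normalized counts (1.52, SE 0.02) in the authors' deposited table, beside 0.19 with 665 (not called) and 1.01 with 667. AFP, the fetal albumin relative, went from 154616 to 323034 (1.06, SE 0.02) in the authors' deposited table, and was called lower with 665 (-0.87) and higher with 667 (1.40). AHSG, the plasma protein fetuin-A, was among those that fell, from 94063 to 63280 (-0.57, SE 0.02) in the authors' deposited table, and was repeated by 665 (-1.05) and not by 667 (0.21). Of 12 acute-phase genes 9 were higher and 3 lower (median 0.91), beside 26.1% and 28.7% of all genes. With 665, 3 of 11 were higher and 3 lower, beside 19.6% and 21.3% of all genes. With 667, 6 of 11 were higher and 4 lower, beside 19.0% and 19.8%. HAMP, the iron hormone hepcidin, went from 1998 to 9779 (2.29, SE 0.04) in the authors' deposited table, beside 0.07 with 665 and 0.78 with 667, and its rise was larger with 664 than with both. ORM1 and ORM2, near-identical plasma glycoproteins whose reads may be split, rose by 1.12 and 1.09, and SERPINA3, a protease inhibitor, fell by 1.18 in the authors' deposited table. Coagulation and complement genes were higher in 11 of 21 and lower in 5, beside 26.1% and 28.7% of all genes, and 6 of these 16 calls were repeated by neither other hairpin, beside 28.2% of all calls. SERPINC1, antithrombin, went from 2572 to 7948 (1.63, SE 0.04) in the authors' deposited table and was repeated by 667 (1.19) and not by 665 (0.17).

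Of 23 hypoxia and glycolysis genes 15 were higher and 7 lower with 664, beside 26.1% and 28.7% of all genes. Their median was 0.69 with 664, 0.14 with 665 and 0.69 with 667. NDRG1 went from 930 to 4218 normalized counts (2.18, SE 0.06) in the authors' deposited table, beside 0.89 with 665 and 2.22 with 667. ADM, adrenomedullin, went from 792 to 2445 (1.63, SE 0.08) in the authors' deposited table, and BNIP3, a mitophagy receptor, from 4435 to 8965 (1.02, SE 0.04). SLC2A1, the glucose transporter GLUT1, fell from 31840 to 16213 (-0.97, SE 0.02) with 664 and was lower with all 3 hairpins in the authors' deposited table. By the test 15 of the 23 genes were higher and 1 lower with 664 than with 665, beside 7.22% and 5.49% of all genes, and 0 were higher and 7 lower than with 667, beside 5.36% and 4.52%.

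Proliferation genes mostly fell. Of 33 DNA replication genes 23 were lower and 1 higher with 664 (median -0.34), beside 28.7% and 26.1% of all genes. Of 28 mitosis genes 17 were lower and 6 higher (median -0.23), beside the same shares. The DNA replication median was -0.44 with 665, -0.32 with 667 and -0.72 in the libraries labelled shEZH2. For mitosis these medians were -0.46, -0.33 and -0.39. Both medians were thus below 0 in every group set against these control libraries. GINS2, of the replicative helicase, went from 2943 to 1364 normalized counts (-1.11, SE 0.07), and MCM2, a helicase subunit, from 1975 to 967 (-1.03, SE 0.08), in the authors' deposited table. PLK1, a mitotic kinase, went from 4602 to 2531 (-0.86, SE 0.05) in the authors' deposited table, while TOP2A, the topoisomerase of dividing cells, rose from 23495 to 47084 (1.00, SE 0.02), and 667 did not repeat the rise of TOP2A (0.11). The cyclin-dependent kinase inhibitor CDKN1A fell by 0.57 (SE 0.05) in the authors' deposited table. Of 22 p53 targets 12 were lower and 6 higher, beside 28.7% and 26.1% of all genes, and 10 and 7 after centring on the median. The share of these targets that were higher lay near that of all genes.

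Stress genes were mixed. Of 18 genes of the unfolded protein response 12 were lower and 2 higher (median -0.28), beside 28.7% and 26.1% of all genes. With 665, 11 were lower and 2 higher (median -0.32), beside 21.3% and 19.6% of all genes. With 667, 5 were lower and 6 higher (median -0.01), beside 19.8% and 19.0%. By the test 8 of the 18 were lower and 1 higher with 664 than with 667, beside 4.52% and 5.36% of all genes. In the libraries labelled shEZH2 the median was -0.68 against the same control. XBP1, a transcription factor of this response, went down from 12243 to 5917 normalized counts (-1.05, SE 0.03) in the authors' deposited table. The chaperone HSPA5 did not pass in the authors' deposited table (-0.02, SE 0.02, adjusted p = 0.478). Of 25 targets of the stress factor ATF4 13 were lower and 6 higher, beside 28.7% and 26.1% of all genes. Among them the asparagine synthetase ASNS was down by 0.95 (SE 0.08), where neither other hairpin was called in the authors' deposited table. GDF15, a stress-induced cytokine, was up from 18661 to 41599 (1.16, SE 0.02) in the authors' deposited table. GDF15 was called lower with 665 (-0.47) and higher with 667 (0.38). Of 18 targets of the oxidative-stress factor NRF2 8 were higher and 6 lower, beside 26.1% and 28.7% of all genes. Their largest rise was that of AKR1B10, an aldo-keto reductase, from 633 to 2590 (2.03, SE 0.08) in the authors' deposited table. NQO1, a quinone reductase, rose by 0.45 (SE 0.02) in the authors' deposited table and was repeated by neither.

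Markers of other cell types were checked. Of 12 fibroblast and endothelial markers 4 reached a mean of 10, with 1 higher and 1 lower (0 lower after centring on the median). Of 10 blood cell markers 5 did, with 3 higher and 1 lower. Beside them, 26.1% of all genes were higher and 28.7% lower, and these markers are too few to read as a trait. The rest were not listed or lay under a mean of 10. The blood marker LYZ, lysozyme, was at 97833 normalized counts in the control and 54153 with 664 (-0.85, SE 0.02) in the authors' deposited table. Of 13 biliary and progenitor markers 5 were higher and 6 lower, beside 26.1% and 28.7% of all genes. KRT19, a biliary keratin, went from 29083 to 12187 (-1.25, SE 0.03), CD24, a surface glycoprotein, from 4183 to 1153 (-1.86, SE 0.06), and PROM1, the progenitor marker CD133, from 744 to 144 (-2.37, SE 0.15), in the authors' deposited table. All 3 were lower with each hairpin and fell further with 664 by the test. Other markers of the list rose, with the liver and biliary transcription factors ONECUT1 at 1.76 (SE 0.16) and ONECUT2 at 1.09 (SE 0.09) in the authors' deposited table. Of 22 genes of matrix and mesenchymal transition 12 were lower and 4 higher, beside 28.7% and 26.1% of all genes. FN1, fibronectin, went down from 223297 to 125565 (-0.83, SE 0.02) in the authors' deposited table.

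**Figure D3:**
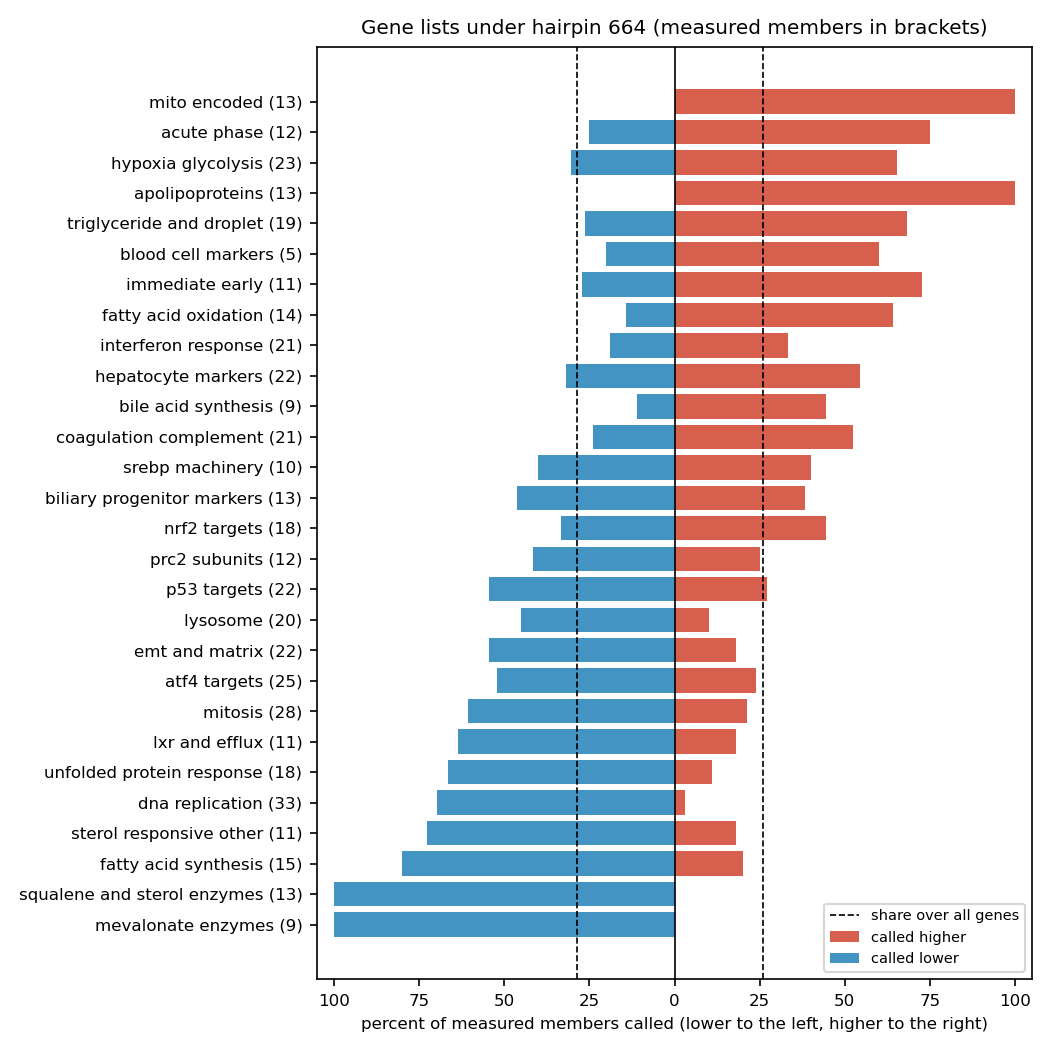
Percent of the measured members of each gene list called lower (blue, to the left) or higher (red, to the right) with hairpin 664, with the number of measured members in brackets. Dashed lines mark the shares over all 16426 genes, 28.7% lower and 26.1% higher. The mevalonate and the squalene and sterol enzymes are all lower, and the apolipoproteins and mitochondrially encoded transcripts all higher.

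The effects that the other 2 hairpins do not repeat were counted as calls of 664 with no call in the same direction for 665 or 667. Of the 8998 called genes, 3699 (41.1%) were repeated by both, 1448 by 665 alone, 1311 by 667 alone and 2540 (28.2%) by neither. Among the 4281 higher genes 1259 (29.4%) and of the 4717 lower genes 1281 (27.2%) were repeated by neither. The unrepeated changes were smaller, with a median size of 0.43 on the log2 scale beside 0.68 for those repeated by both, but among calls of at least 2-fold the medians were 1.56 and 1.45. Among the 2540, 1339 had the same sign in both other tables, 575 had an unadjusted p under 0.05 in the same direction in at least 1 of them, and 63 were absent from 1 of the tables. When each gene of 664 was given the largest standard error of the 3 hairpins, 6089 genes were called. Of these, 3226 were repeated by both and 1151 by neither. With the deposited standard errors and a 2-fold minimum, 490 of 1998 calls were repeated by neither. A missed call elsewhere is not a difference. Only 322 of the 2540 (12.7%), 205 higher and 117 lower, had a fold change that differed from both 665 and 667 by the test of the difference. In addition, 108 genes were repeated by both but changed further with 664 than with each, as for SREBF1, SCD and GSTA1 above.

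Among the unrepeated genes that differed from both and had a mean of at least 100, 204 were higher and 115 lower. The 8 higher genes with the largest difference were chosen on that difference, so their values are a description. PPP1R1A, an inhibitor of protein phosphatase 1, went from 14.1 to 295 normalized counts (4.38, SE 0.33) in the authors' deposited table, beside 0.93 (SE 0.73) with 665 and 0.89 (SE 0.74) with 667. PGLYRP2, a liver amidase that cleaves bacterial peptidoglycan, went from 57.8 to 772 (3.74, SE 0.18) in the authors' deposited table, beside 0.73 and 0.69. CSTA, a cysteine protease inhibitor, went from 53.5 to 329 (2.62, SE 0.24) in the authors' deposited table, beside 0.26 and 0.00. These genes were expressed at low levels in the control and their changes with the other hairpins were not called. LDLRAD1 (2.33, SE 0.22), SLC6A12, a betaine transporter (2.11, SE 0.21), PPP1R1C (1.92, SE 0.20), DAO, a D-amino acid oxidase (1.76, SE 0.29), and MAB21L4 (1.50, SE 0.16) followed in the authors' deposited table, and of these MAB21L4 was called lower with 665 (-0.66).

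Of the 8 lower genes chosen in the same way, MMP2, a collagen-degrading metalloprotease, fell from 374 to 87.1 normalized counts (-2.10, SE 0.21) in the authors' deposited table, while it was called higher with 665 (1.05) and not called with 667 (-0.12). FILIP1L fell from 2238 to 1061 (-1.08, SE 0.08) in the authors' deposited table, beside 0.25 with 665 and 0.55 (called higher) with 667. FJX1 (-1.86, SE 0.30), MYLIP (described above) and GPX8, a glutathione peroxidase of the endoplasmic reticulum (-1.29, SE 0.28), were lower with 664 and not called with the others in the authors' deposited table. PLA2G2A and DLX1 were also among the 8 and moved the other way with both.

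In all, 48 genes were called in the opposite direction with both 665 and 667, 38 of them higher and 10 lower with 664. All 48 also passed the test of the difference from both. That test uses the same fold changes and standard errors as the calls, so opposite calls make a pass nearly certain and it adds no support. PLA2G2A, a secreted phospholipase A2 (chr1:19975431-19980416, GRCh38, GENCODE 29), fell from 7663 to 2435 normalized counts with 664 (-1.65, SE 0.05) and rose with 665 (0.83, SE 0.09) and 667 (0.79, SE 0.10) in the authors' deposited table. SAA4, a constitutive serum amyloid A, rose from 1605 to 3286 (1.03, SE 0.06) in the authors' deposited table and fell by 1.11 with 665 and 0.60 with 667. ACSL1, which activates long-chain fatty acids, rose from 1214 to 2065 (0.77, SE 0.07) and fell by 0.57 and 0.51 in the authors' deposited table. Of these 3 genes, the first fell and the other two rose with 664, each against the shared direction of the other hairpins. DUSP8, a phosphatase of stress kinases (0.69, SE 0.09), and EMX1, a homeobox factor (0.69, SE 0.13), rose with 664, and DLX1, also a homeobox factor, fell (-0.63, SE 0.27, adjusted p = 0.037) in the authors' deposited table, a call that is lost when the fold changes are centred on their median (-0.57). Counting these, 332 genes were called in the opposite direction with at least 1 of the other hairpins.

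**Figure D4:**
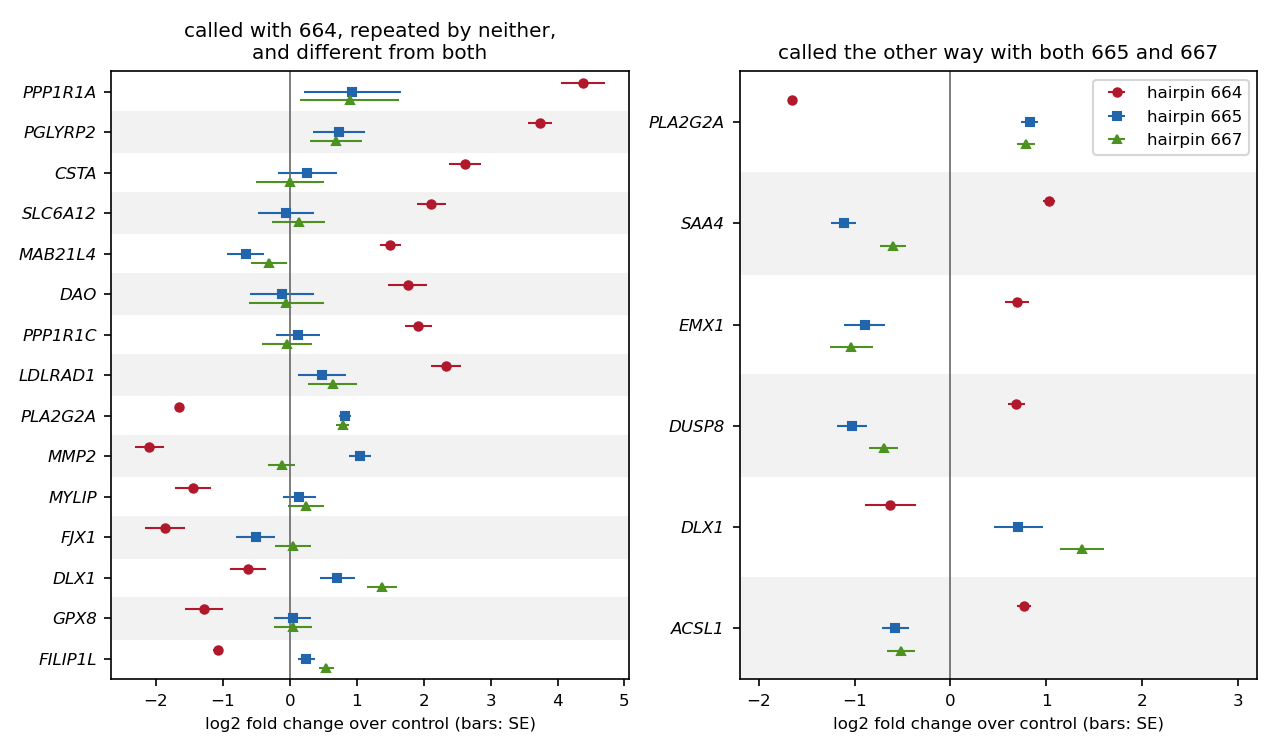
Log2 fold change over the control with standard errors for hairpins 664, 665 and 667 in the deposited tables. The left panel holds 15 genes (8 higher and 7 lower) called in their direction with 664 alone whose change differed most from both others, and the right panel 6 genes called in the opposite direction by both. In the right panel PLA2G2A and DLX1 lie below 0 with 664 and above 0 with the others, and SAA4, EMX1, DUSP8 and ACSL1 the reverse.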

How the data were processed

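RNA-seq was run on 2 libraries per group. Per the submitters' processing notes, STAR 2.4.2, Salmon and GRCh38 were used; their roles are not stated in these notes. Each deposited table follows the column layout of DESeq2 per the file headers. The authors deposited per gene a mean signal over both groups (normalized counts), a log2 fold change and its standard error in log2 units, a score that is the quotient of these values, and a p-value with its Benjamini-Hochberg adjusted p-value; the fitted model is not recorded. The fold changes are of hairpin over control, checked by the control levels that the tables imply, which agree between tables for this sign only. The deposited adjusted p under 0.05 was the call, for a mean of 10 or more. Adjusted p-values are missing for 667 genes of the 667 table and were kept missing.

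Group levels were computed from mean and fold change for groups of equal size. Differences between hairpins were tested by a two-sided normal test with added variances and Benjamini-Hochberg adjustment over the 15908 (665) or 15871 (667) genes with a mean of at least 10 in both tables. Shared control libraries make this variance too large. On data simulated for 664 against 665, the test recovered 67 of 104 differences of 1 and 76 of 96 of 2 on the log2 scale, with 0 false calls. No values per library were analysed, so leaving out libraries, other normalizations and depth per library could not be examined.

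Named genes were SREBF2, the cholesterol enzymes, the 10 highest and 10 lowest called changes (mean at least 100, standard error at most 1), up to 4 genes with the smallest adjusted p of each list with at least 3 calls, the 8 largest unrepeated differences in each direction, and 6 genes called oppositely by both other hairpins. Some genes that this rule names are not reported here. ABCA1, AHSG, HSPA5, ASNS, MCM2, ONECUT1 and ONECUT2 were named after their values were seen. EZH2, and NPC1L1, which is only plotted, also lie outside this rule. The genes and lists were chosen with earlier results of these data known. Python 3.11.15, numpy 2.4.6, pandas 2.3.3, scipy 1.17.1 and matplotlib 3.10.9 were used. Alternatives covered the filter, threshold, centring, the definition of a repeat and the shared control.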

Additional observations from a re-analysis of the deposited data

Results flagged for a closer look

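For 6 genes the change with hairpin 664 and the changes with 665 and 667 had opposite signs. The test of the difference passed in each case (normal test on the deposited fold changes, Benjamini-Hochberg adjustment). The genes had been picked for opposite calls in the same values, so the pass follows from the choice and is no further support. PLA2G2A differed by -2.48 from 665 and by -2.44 from 667, SAA4 by 2.15 and 1.63, and EMX1 by 1.59 and 1.73, on the log2 scale. DUSP8 differed by 1.72 from 665 and 1.38 from 667, DLX1 by -1.34 and -2.00, and ACSL1 by 1.34 and 1.28. The genes were picked from 48 of this kind by the size of the smaller difference. The 2 libraries of each hairpin against the same 2 control libraries are the whole evidence, and an effect of the hairpin sequence cannot be told apart from one of the cultures or libraries.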

How the results depend on the processing

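No paired analysis was possible because the tables give no values per library, and for the same reason leaving out a library, another normalization and a refit were not run. A 2-fold minimum reduced the calls of hairpin 664 to 1998 (1345 higher, 653 lower), of which 983 were repeated by both other hairpins, 525 by 1 and 490 by neither, with 52 of the last different from both. Counting any same sign as a repeat gave 7327 repeated by both, 1275 by 1 and 396 by neither. An alternative added after seeing the data used the largest standard error of the 3 hairpins for 664. It called 6089 genes, of which 3226 were repeated by both, 1712 by 1 and 1151 by neither. Of the last, 264 differed from both. Subtracting the covariance of the shared control gave 3041 genes different from 665, with 1517 lower, and 1160 lower than with 667. It gave 472 unrepeated genes different from both. On simulated data this version recovered 82 of 104 differences of 1 and 83 of 96 of 2, with 6 false calls. The main test recovered 67 and 76, with 0 false calls. The simulated tables held normal noise and few changed genes, so the false calls cannot decide between the 2 sets of counts. Centring on the median moved the share of calls that were higher from 47.6% to 54.0%, with 8419 genes called in the same direction in both settings and 0 opposite, and under it DLX1 (-0.57) was no longer called. Filters on the mean of 50 or 100 or none, an adjusted p under 0.01 and adjustment over the filtered genes kept each count of all calls within 1.5 times. With 2 libraries per group, genes near a mean of 10 have large standard errors.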

Other observations

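Subunits of the histone methyltransferase complex PRC2, of which EZH2 is the enzyme, were lower with hairpin 664 in 5 of 12 measured genes and higher in 3, beside 28.7% and 26.1% of all genes, so the counts lie near those shares. EZH2 itself went from 1147 to 853 normalized counts (-0.43, SE 0.10, in the authors' deposited table) and was not called with 665 (0.11) or 667 (-0.31). PHF19, an accessory subunit, fell by 0.79, and the histone-binding subunits RBBP4 and RBBP7 fell by 0.64 and 0.42, each repeated by both other hairpins. EPOP, another accessory subunit, fell by 0.48 and was repeated by neither.

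Of 20 lysosomal genes 9 were lower and 2 higher, beside 28.7% and 26.1% of all genes. ATP6V0D1, of the proton pump, fell by 1.13 (SE 0.09) and NEU1, a sialidase, by 0.80 (SE 0.04) in the authors' deposited table, both repeated by the other hairpins, while CTSB, cathepsin B, rose by 0.64 (SE 0.03) and was not repeated by 665. Of 11 immediate early genes 8 were higher and 3 lower, beside 26.1% and 28.7% of all genes. Among them JUN was up from 5832 to 17346 normalized counts (1.57, SE 0.03) in the authors' deposited table, beside 0.42 with 665 and 0.59 with 667. In the libraries labelled shEZH2 the median of these 11 genes was -0.77 against the same control, where it was 0.33 with 664. Of 21 interferon-response genes 7 were higher and 4 lower, which is near the shares of all genes (26.1% and 28.7%). IFITM3, a membrane protein that restricts virus entry, fell by 0.61 (SE 0.03) in the authors' deposited table with 664 and rose by 0.49 with 667, and ISG15, a ubiquitin-like modifier, rose with all 3 hairpins (0.95 with 664).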
